A study of Mus musculus with 10 samples.

Results

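The 10 genes described here encode the regulators that switch lipid synthesis on and off in the liver: Srebf1, Srebf2, Scap, Insig1, Insig2, Mbtps1, Mlxipl, Mlx, Usf1 and Ppargc1b. They were taken by symbol from a table of 17359 genes, and each symbol matched 1 row, so all 10 were found. All 10 passed the filter on low counts, with 12789 genes tested in all.

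The samples were livers of mice on a high-fat diet (HFD), which was fed to every group, and which is used to induce obesity. Day 1 and day 4 of the weekly cycle allowed 50% fewer calories, day 2 and day 3 allowed 70% fewer, and feeding was free from day 5 to day 7. The groups were ad libitum controls (AL, n = 3), mice in the calorie restriction period at day 3 (LC, low-calorie, n = 4) and mice in the refeeding period at day 7 (RF, n = 3). The labels used here give no sex or age. Nor do they call the samples of a group separate animals, so a p-value here reflects sample-to-sample spread that may be technical.

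Sterol regulatory element binding proteins (SREBPs) are transcription factors made as precursors in the membrane of the endoplasmic reticulum. When sterols are scarce, the escort protein SCAP carries them to the Golgi, where proteases release the active part; when sterols are plentiful, INSIG proteins hold SCAP back. The carbohydrate response element binding protein (ChREBP) acts in parallel, on glucose, as a pair with MLX. In liver these routes are known for turning fatty acid and cholesterol synthesis up after meals and down during fasting. Much of this control works on proteins, which RNA levels do not show.

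The promoters of 5 members are shown with the letters that SREBP, its partner NF-Y, ChREBP and USF1 are known to bind. Sequences are RefSeq windows on GRCm38.p6, from 250 bases before to 50 bases after a start site. Of the 10 members 9 were read, with 16 windows among them, and Ppargc1b was left out of the search. Capitals mark the E-box CACGTG, the inverted CCAAT box ATTGG and the sterol element core TCACNC, searched on both strands. The E-box was found in 4 of the 9 members and 5 of the 16 windows, of which both Scap windows overlap and hold the same site, and in 7.15% of all 32851 windows. ATTGG was found in 7 of the 16 and in 37.4% of all windows, and TCACNC in 7 of the 16 and in 43.2%. The longer sterol element TCACNCCAC, which contains the core, was found in 1 of the 16, at the downstream start of Mlxipl, and in 1.24% of all windows. Matches are letters in a window and do not show binding.

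The Insig1 window lies on the plus strand at chr5:28071162-28071461, and the window of the most upstream Insig2 start on the minus strand at chr1:121332540-121332839. The upstream Mlxipl window is on the plus strand at chr5:135089640-135089939, the Mlx window on the plus strand at chr11:101087040-101087339 and the most downstream Srebf1 window on the minus strand at chr11:60210422-60210721. These 5 are printed because they belong to the INSIG pair, the ChREBP pair and the lipogenic SREBP gene, and the Usf1 and Mbtps1 windows held none of the 4 motifs.
Insig1: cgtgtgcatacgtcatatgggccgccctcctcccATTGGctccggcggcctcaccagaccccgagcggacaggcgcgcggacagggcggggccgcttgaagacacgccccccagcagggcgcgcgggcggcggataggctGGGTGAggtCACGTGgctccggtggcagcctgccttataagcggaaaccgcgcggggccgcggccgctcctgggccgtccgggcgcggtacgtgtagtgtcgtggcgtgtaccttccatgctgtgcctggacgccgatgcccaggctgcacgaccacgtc
Insig2: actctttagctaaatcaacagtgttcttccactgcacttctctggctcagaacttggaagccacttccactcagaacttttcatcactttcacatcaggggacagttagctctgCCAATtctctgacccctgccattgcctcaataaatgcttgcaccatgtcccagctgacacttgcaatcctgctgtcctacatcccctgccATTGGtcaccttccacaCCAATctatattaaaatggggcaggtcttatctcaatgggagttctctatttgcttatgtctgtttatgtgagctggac
Mlxipl: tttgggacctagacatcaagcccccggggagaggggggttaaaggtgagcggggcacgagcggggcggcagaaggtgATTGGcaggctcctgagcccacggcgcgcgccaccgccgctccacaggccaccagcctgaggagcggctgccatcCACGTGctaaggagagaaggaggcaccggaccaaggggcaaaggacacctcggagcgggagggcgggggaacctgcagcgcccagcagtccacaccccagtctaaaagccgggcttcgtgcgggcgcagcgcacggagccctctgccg
Mlx: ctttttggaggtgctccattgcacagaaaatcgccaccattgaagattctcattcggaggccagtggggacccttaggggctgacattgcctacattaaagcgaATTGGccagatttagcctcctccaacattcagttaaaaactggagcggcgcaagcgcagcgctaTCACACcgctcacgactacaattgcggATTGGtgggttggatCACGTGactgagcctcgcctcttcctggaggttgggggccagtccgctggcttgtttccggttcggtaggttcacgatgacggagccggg
Srebf1: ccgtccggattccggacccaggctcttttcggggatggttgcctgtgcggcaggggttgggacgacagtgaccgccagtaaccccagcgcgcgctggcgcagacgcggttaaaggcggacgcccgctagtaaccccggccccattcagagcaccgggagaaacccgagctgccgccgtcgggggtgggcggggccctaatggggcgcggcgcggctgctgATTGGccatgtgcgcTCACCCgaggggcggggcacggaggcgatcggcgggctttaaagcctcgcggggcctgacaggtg
In the Insig1 window the E-box begins 101 bases before the start site, with a reversed sterol core beginning at 110 bases and an ATTGG box at 216 bases before it. The Insig2 window has 3 CCAAT boxes and neither of the other motifs. The Mlxipl and Mlx windows each hold 1 E-box, beginning 98 and 40 bases before the start site. In the Srebf1 window an ATTGG box begins 30 bases and a sterol core 15 bases before the start site.

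Library totals were 13871500 to 15899500 expected counts. On principal component 1 the LC libraries lay at 27.1 to 44.5 and the other libraries at −37.5 to −11.1. Liver identity was checked with marker genes: 6 hepatocyte markers summed to between 78204 and 93276 CPM (counts scaled to library size) in AL libraries, between 48201 and 63562 in LC libraries and between 72763 and 75547 in RF libraries. Of these 6, 5 fell from AL to LC and none rose, where 15.6% of all genes were called lower and 16% higher. Of 5 sinusoidal endothelial markers 2 rose and none fell. Their sum was between 116 and 122 CPM in AL libraries, 170 and 189 in LC and 149 and 176 in RF. At RF against LC 1 of them rose and 1 fell, where 11.4% of all genes were called higher and 10.7% lower. Library scaling factors were 0.827 to 0.952 at AL and 1.06 to 1.18 at LC. The markers were not read under another scaling. The 6 Kupffer cell markers had no call, and the 3 adipocyte markers in the table summed to between 2.52 and 4.53 CPM in AL, 0.323 and 2.34 in LC and 0.268 and 0.732 in RF libraries. Of these, Cidea was the only one tested, and it fell at LC against AL (log2 fold change −2.37, edgeR adjusted p = 0.00952). Mean AL levels were 3.49 CPM for Cidea, 0.166 for Plin1 and 0.0490 for Adipoq. The sum therefore mainly follows Cidea and says little about adipocytes. Of 5 stellate markers 1 fell at LC against AL and 3 rose at RF against LC, when 3 hepatocyte markers also rose, and their sum was between 131 and 156 CPM in AL, 107 and 144 in LC and 172 and 195 in RF libraries. Of 4 cholangiocyte markers 1 rose at LC, with a sum of 54.2 to 122 CPM over all libraries. Of 4 lymphocyte markers 3 were tested and none was called, with a sum of 9.13 to 17.2 CPM over all libraries. That sum mainly follows Ptprc, which had a mean of 8.87 CPM at AL, where the sum had a mean of 11.2 CPM. The part of these shifts in the results was not tested, and in bulk liver fewer cells of a type and less RNA per cell cannot be told apart.

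Across the 3 comparisons the regulators divided into those that fell under restriction (Insig2, Insig1, Mlx), those that rose (Mlxipl, Usf1) and those with no call at LC against AL (Srebf1, Srebf2, Scap, Mbtps1, Ppargc1b). A call here is a Benjamini-Hochberg adjusted p below 0.05 by edgeR's quasi-likelihood test over all genes. At LC against AL 5 of the 10 were called, 2 higher and 3 lower, where 31.5% of all genes were called, 16% higher and 15.6% lower. At RF against LC 6 of the 10 were called, 4 higher and 2 lower, where 22.1% of all genes were called, 11.4% higher and 10.7% lower. At RF against AL none of the 10 was called, where 0.0547% of all genes were called (0.0156% higher, 0.0391% lower), with 1 of the 10 and 1381 of the 12789 genes at an unadjusted p below 0.05, and none of the 10 called by DESeq2. The groups did not overlap for 6 members at LC against AL (35.8% of all genes), 1 at RF against AL (18.9%) and 6 at RF against LC (34.1%). The comparisons share libraries, so they are not independent of each other. Without AL replicate 3 the count at LC against AL was 1, without AL replicate 4 it was 3 and without LC replicate 4 it was 2, and without RF replicate 2 the count at RF against LC was 2.

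**Figure D1:**
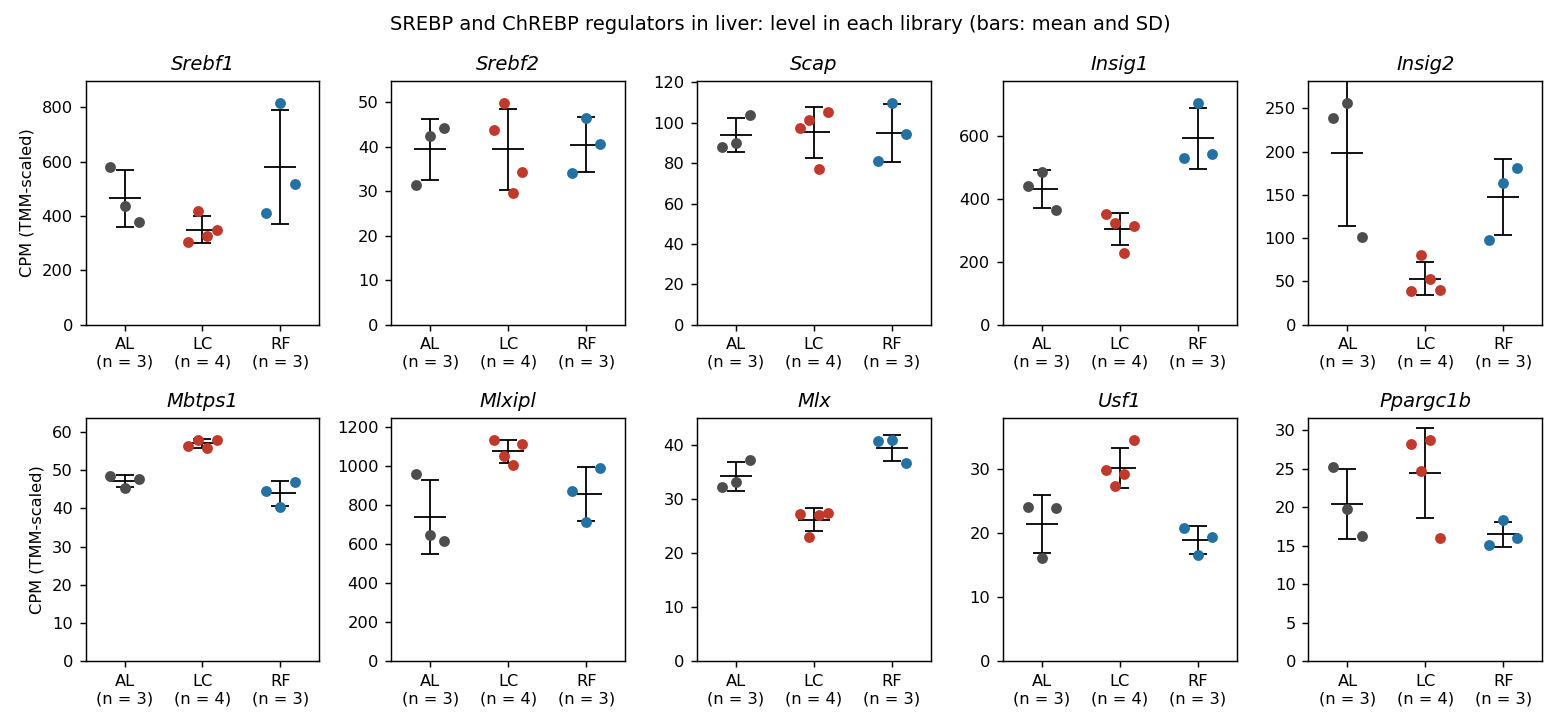
Level of each regulator in each library, in CPM with TMM scaling (trimmed mean of M values), for AL (n = 3), LC (n = 4) and RF (n = 3), with bars for the mean and SD. Insig2 sits at 38.6 to 80.3 CPM in the LC libraries, below every AL and RF library, while the Srebf2 and Scap groups overlap.

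Levels per transcript length were compared between genes in FPKM, as the authors' values with means over libraries. At AL the order was Insig1 (161 ± 18.7 FPKM, SD, n = 3), Mlxipl (158 ± 47.2), Srebf1 (105 ± 28.7) and Insig2 (79.7 ± 33.5), then Scap (21.6 ± 2.56), Mlx (19.9 ± 2.30), Usf1 (12.7 ± 3.42), Mbtps1 (10.9 ± 1.104), Srebf2 (6.92 ± 1.04) and Ppargc1b (1.83 ± 0.492). The first 4 overlapped their neighbours, as did Scap with Mlx and Usf1 with Mbtps1, while the steps from Insig2 to Scap, Mlx to Usf1, Mbtps1 to Srebf2 and Srebf2 to Ppargc1b were clear of overlap. At LC Mlxipl came first at 271 ± 17.1 FPKM (n = 4), 1.92 times Insig1 and with no overlap, and Insig2 had rank 5 at 26.7 ± 9.15 FPKM, overlapping Scap (27.0 ± 2.65). At RF Insig1 was again first at 239 ± 39.9 FPKM (n = 3), overlapping Mlxipl at 199 ± 33.1, and Insig2 had rank 4 again at 63.9 ± 19.6. Srebf1, the SREBP gene tied to fatty acid synthesis, was above Srebf2, the one tied to cholesterol, in all 3 groups, without overlap.

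**Figure D2:**
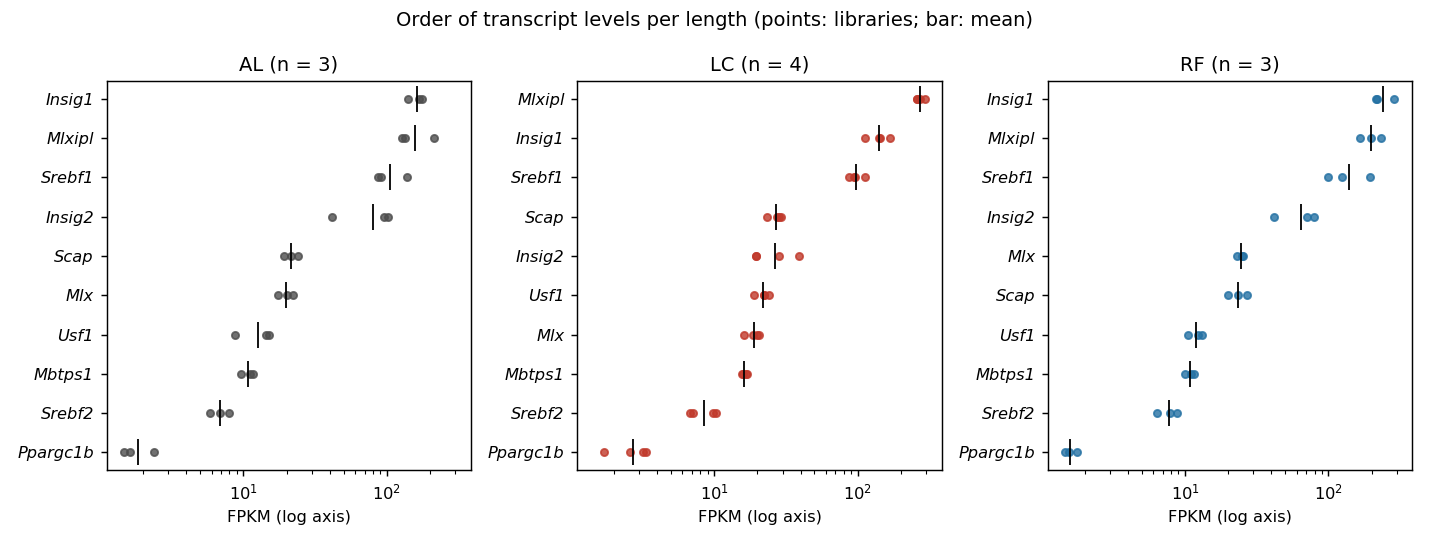
FPKM of each regulator on a log axis, ordered by mean within AL (n = 3), LC (n = 4) and RF (n = 3), with points for libraries and a bar for the mean. Mlxipl moves to first place at LC and Insig2 moves from rank 4 to rank 5, next to Scap, with Ppargc1b last in each group.

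Srebf1 (NCBI gene 20787), which encodes SREBP-1, was higher at RF than at LC and not called between LC and AL. Its levels were 580, 438 and 377 CPM at AL, 304, 420, 325 and 350 at LC, and 411, 815 and 516 at RF. LC and RF overlapped through LC replicate 2 and RF replicate 1, and RF replicate 2 was the highest library of the 10. On the log2 scale it differed by 0.73 at RF against LC (SE 0.22, edgeR adjusted p = 0.0305), −0.41 at LC against AL (SE 0.22, adjusted p = 0.169) and 0.32 at RF against AL (SE 0.24, adjusted p = 0.645). The rise was not called without RF replicate 2 (0.41, adjusted p = 0.191), without LC replicate 1, 3 or 4 (0.0633 to 0.0777), with library totals alone (0.0908) or in FPKM (0.138 and 0.140). After removal of the length and GC trends, LC against AL was called (−0.76, adjusted p = 0.0227). Gene counts do not separate the SREBP-1a and SREBP-1c transcripts.

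Srebf2 (NCBI gene 20788), which encodes SREBP-2, had nearly the same mean level in the 3 groups. It was at 31.4, 42.4 and 44.2 CPM at AL, 43.8, 49.7, 29.6 and 34.3 at LC, and 34.1, 46.5 and 40.7 at RF, with all 3 groups overlapping. Its fold change on the log2 scale was −0.00039 at LC against AL, with a 95% interval of −0.40 to 0.40, and 0.04 at RF against LC, with an interval of −0.36 to 0.43.

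Scap (NCBI gene 235623), the sterol sensor and escort of both SREBPs, likewise had overlapping groups. It was at 88.1, 89.9 and 104 CPM at AL, 97.2, 102, 77.1 and 106 at LC, and 80.9, 110 and 94.5 at RF. The log2 fold change was 0.02 at LC against AL (95% interval −0.29 to 0.33), 0.02 at RF against AL (−0.31 to 0.35) and −0.0045 at RF against LC (−0.31 to 0.30). Neither Srebf2 nor Scap was called in any comparison under any of the 22 alternatives, and their fold changes took both signs among these.

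Insig2 (NCBI gene 72999) had the largest change of the 10, 3.74-fold lower under restriction than at AL. In mouse liver a liver-specific Insig2 transcript is known, and gene counts do not separate it from the other. Insig2 was at 239, 256 and 101 CPM at AL, 38.6, 80.3, 53.2 and 40.2 at LC, and 97.5, 164 and 181 at RF. Every LC library lay below every AL and RF library, and AL replicate 4 lay inside the RF range. On the log2 scale it differed by −1.90 at LC against AL (SE 0.38, edgeR adjusted p = 0.00540) and 1.47 at RF against LC (SE 0.37, adjusted p = 0.0221), and −0.43 at RF against AL (SE 0.40, 95% interval −1.33 to 0.47, adjusted p = 0.728). The fall was called under all 22 alternatives, and the rise at RF was not called without LC replicate 1 or 4 or RF replicate 2 or 3 (adjusted p = 0.0506 to 0.0750).

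Insig1 (NCBI gene 231070), the other retention protein and itself a known SREBP target, fell and rose in the same comparisons. Its levels were 442, 486 and 366 CPM at AL, 351, 324, 230 and 315 at LC, and 532, 705 and 543 at RF. The 3 groups did not overlap, with LC lowest and RF highest. Its fold change on the log2 scale was −0.50 at LC against AL (SE 0.17, edgeR adjusted p = 0.0353) and 0.96 at RF against LC (SE 0.17, adjusted p = 0.00225), and 0.46 at RF against AL (SE 0.18, unadjusted p = 0.0231, adjusted p = 0.386). The rise from LC to RF was called under all 22 alternatives. The fall was not called on leaving out any 1 of AL replicates 2 and 3 and LC replicates 3 and 4 (0.0580 to 0.155), nor with library totals alone (−0.19, adjusted p = 0.359) or in FPKM (0.317 and 0.321).

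Mbtps1 (NCBI gene 56453), which encodes the site-1 protease that makes the first cut in SREBPs, was highest at LC. It was at 48.3, 45.3 and 47.7 CPM at AL, 56.4, 57.9, 55.7 and 57.9 at LC, and 44.5, 40.4 and 46.8 at RF. Every LC library was above every other library, and AL and RF overlapped. The log2 fold change was −0.38 at RF against LC (SE 0.11, edgeR adjusted p = 0.0224), while 0.27 at LC against AL did not pass (SE 0.11, adjusted p = 0.0619). The latter was called with library totals alone (0.58, adjusted p = 0.00224), in FPKM and by voom with sample weights. The former was not called without RF replicate 1 (0.0636) or RF replicate 2 (0.115) or with the length trend removed (0.0506).

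Mlxipl (NCBI gene 58805), the gene of ChREBP, rose under restriction while the gene of its partner fell. Mlxipl was at 956, 645 and 616 CPM at AL, 1133, 1049, 1003 and 1113 at LC, and 873, 712 and 987 at RF. The LC libraries lay above all others, by a narrow margin between LC replicate 3 and RF replicate 3. On the log2 scale it differed by 0.54 at LC against AL (SE 0.17, edgeR adjusted p = 0.0273) and −0.33 at RF against LC (SE 0.17, adjusted p = 0.180). The rise was not called on leaving out any 1 of AL replicates 3 and 4 (0.127 each), LC replicate 1 (0.0584) and LC replicate 4 (0.0535), with the length trend removed (0.37, adjusted p = 0.0973) or with length and GC trends removed (0.23, adjusted p = 0.281). RF against LC was called with library totals alone (−0.53, adjusted p = 0.0424).

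Mlx (NCBI gene 21428), whose protein pairs with ChREBP to bind DNA, was at 32.3, 33.1 and 37.3 CPM at AL, 27.2, 23.1, 27.1 and 27.5 at LC, and 40.8, 40.9 and 36.7 at RF. Every LC library was below every other library, and AL replicate 4 overlapped RF. Its fold change on the log2 scale was −0.38 at LC against AL (SE 0.12, edgeR adjusted p = 0.0220) and 0.59 at RF against LC (SE 0.11, adjusted p = 0.00390). The rise to RF was called under all 22 alternatives. The fall was not called on leaving out any 1 of AL replicates 3 and 4 and LC replicate 2 (0.0501 to 0.106), with length trends removed (0.0674, and 0.109 with GC content), with library totals alone (−0.07, adjusted p = 0.704) or in FPKM (0.652 each).

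Usf1 (NCBI gene 22278) encodes an E-box factor that acts with SREBP-1 on lipogenic promoters. It was at 24.2, 16.2 and 24.0 CPM at AL, 29.8, 27.3, 29.2 and 34.6 at LC, and 20.8, 16.6 and 19.5 at RF. The LC libraries were above all others. The log2 fold change was 0.49 at LC against AL (SE 0.16, edgeR adjusted p = 0.0288) and −0.67 at RF against LC (SE 0.16, adjusted p = 0.0100). The rise was not called without AL replicate 3 (0.155) or LC replicate 4 (0.0719), nor the fall without RF replicate 2 (0.0554).

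Ppargc1b (NCBI gene 170826), which encodes the coactivator PGC-1β, was the least abundant member. It was at 25.3, 19.8 and 16.3 CPM at AL, 28.2, 24.7, 28.8 and 16.1 at LC, and 15.1, 18.3 and 16.1 at RF. LC replicate 4 lay within the RF range and the other 3 LC libraries above it. On the log2 scale it differed by −0.57 at RF against LC (SE 0.20, edgeR adjusted p = 0.0585) and 0.26 at LC against AL (SE 0.20, adjusted p = 0.346), and neither passed. RF against LC was called under 8 of the 22 alternatives, among them DESeq2 (0.0466), library totals alone (0.0228) and leaving out LC replicate 4 (0.0149).

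**Figure D3:**
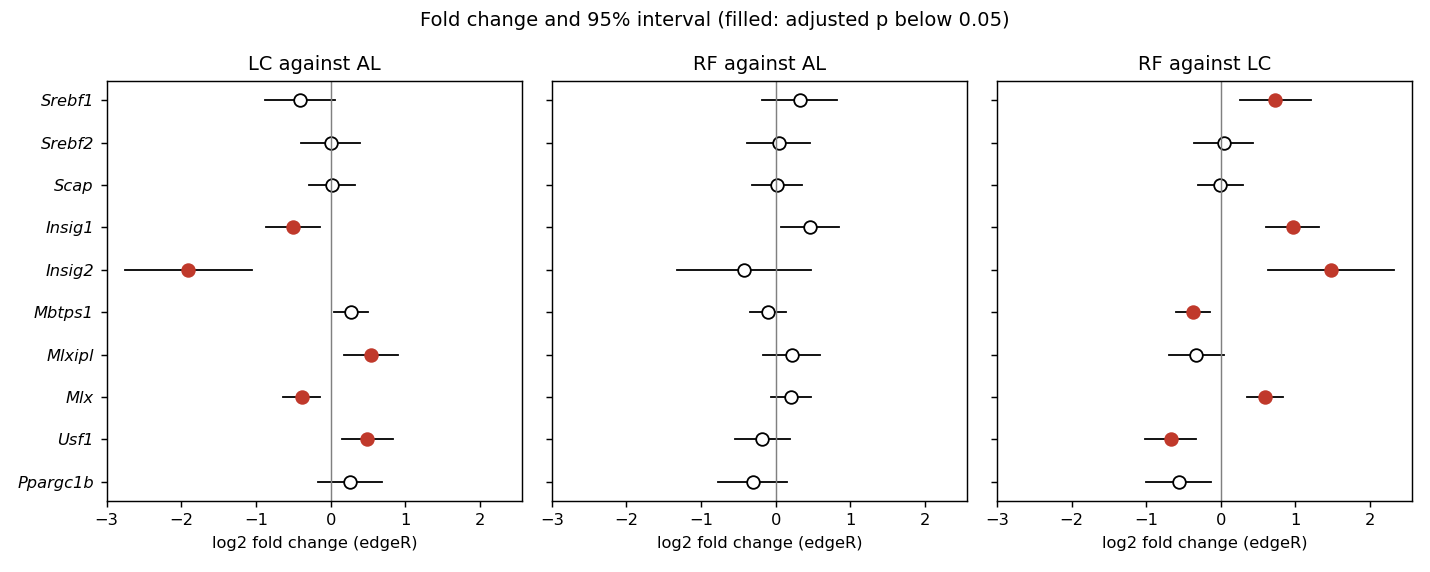
Log2 fold change of each regulator in the 3 comparisons by edgeR, with 95% intervals, filled where the adjusted p is below 0.05. Insig2 is farthest from 0 at LC against AL (−1.90) and no point is filled at RF against AL.

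Ratios of the expected counts of partner genes were taken within each library, since these do not depend on how libraries are scaled. They are compared between groups only, because the counts are not per length. The ratio of Mlxipl to Mlx was 29.6, 19.5 and 16.5 at AL, 41.7, 45.5, 37.0 and 40.5 at LC, and 21.4, 17.4 and 26.9 at RF. LC lay above both other groups without overlap, at 1.94 times AL (log2 difference 0.95, exact two-sided permutation p = 0.0286) and with RF at 0.524 times LC (−0.93, exact p = 0.0286). RF and AL overlapped, with a log2 difference of 0.02 (exact p = 1).

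The ratio of Insig2 to Insig1 was 0.540, 0.526 and 0.277 at AL, 0.110, 0.248, 0.231 and 0.128 at LC, and 0.183, 0.233 and 0.333 at RF. All LC ratios were below all AL ratios, at 0.393 times AL (log2 difference −1.35, exact two-sided permutation p = 0.0286). RF overlapped both LC (0.52, exact p = 0.257) and AL (−0.82, exact p = 0.200). The ratio of Srebf1 to Srebf2 was 18.4, 10.3 and 8.53 at AL, 6.94, 8.44, 10.98 and 10.2 at LC, and 12.1, 17.5 and 12.7 at RF. RF lay above LC without overlap (0.63, exact p = 0.0571), and LC overlapped AL (−0.39, exact p = 0.371). The smallest p that 3 against 4 libraries allow is 0.0286, and 0.1 for 3 against 3. Adjusted over the 9 ratio tests, the smallest was 0.0857, so none passed.

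**Figure D4:**
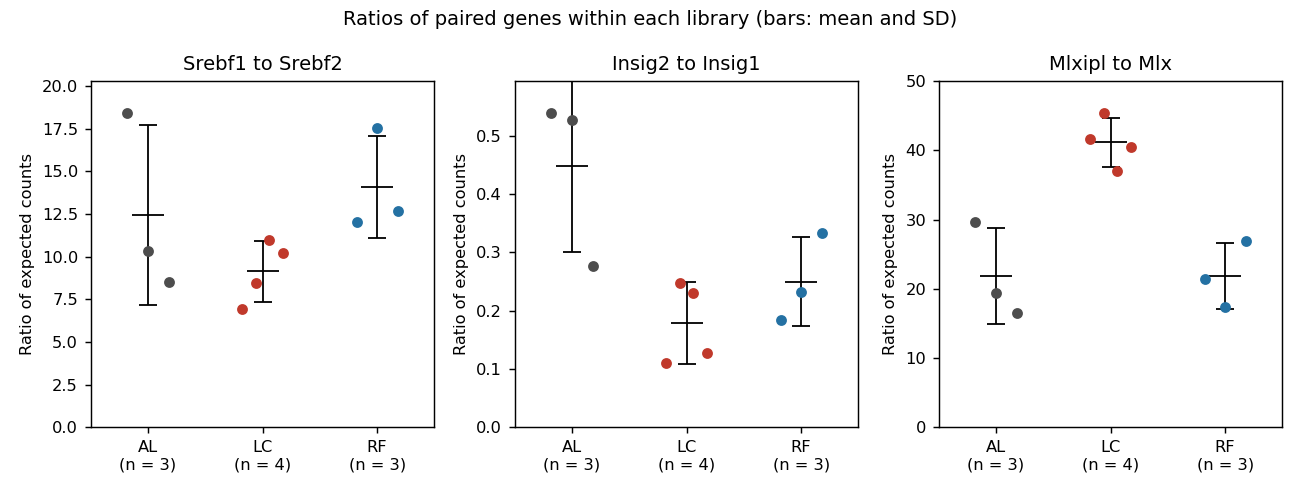
Ratios of expected counts within each library for Srebf1 to Srebf2, Insig2 to Insig1 and Mlxipl to Mlx, at AL (n = 3), LC (n = 4) and RF (n = 3), with bars for the mean and SD. The Mlxipl to Mlx ratio is 37.0 to 45.5 at LC and at most 29.6 elsewhere.

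The other machinery that carries or degrades SREBPs was read from a list of 18 genes. At LC against AL 4 of 18 fell and none rose (22.2% called, against 31.5% of all genes called and 15.6% called lower), with a median log2 fold change of −0.20 against 0.05 over all genes. Of these falls, 3 were in coat proteins of vesicles leaving the endoplasmic reticulum: Sar1b, the coat's GTPase (283 ± 50.4 CPM at AL, SD, n = 3, and 155 ± 30.4 at LC, n = 4; −0.87, edgeR adjusted p = 0.00238), Sec24d (−0.72, adjusted p = 0.00462) and Sec23a (−0.44, adjusted p = 0.0310). The other was Erlin1, a membrane protein that binds sterol-regulated proteins for degradation (−0.67, adjusted p = 0.0122). The list's remaining coat genes were not called there: Sec24a at −0.51, Sar1a at −0.16, Sec24c at −0.07 and Sec24b at 0.36 (edgeR adjusted p = 0.0560 to 0.769). At RF against LC 5 rose and 1 fell (33.3% called, against 22.1% of all genes called, 11.4% higher and 10.7% lower). The rises were Sar1b at 0.72, Sec24d at 0.66, Sec24c at 0.54, Erlin1 at 0.54 and Sec23a at 0.53 (edgeR adjusted p = 0.00962 to 0.0438). Sec24c was not followed under the alternatives. The fall was that of Fbxw7, the ubiquitin ligase subunit that marks nuclear SREBP for degradation (−0.54, adjusted p = 0.0222). None was called at RF against AL. The calls at LC were 3 higher and 6 lower by voom and 8 lower with the length trend removed, where the median was −0.33. In FPKM, 1 was called higher and 2 lower at RF against LC. With library totals alone the median turned to 0.11 at LC against AL and −0.05 at RF against LC, 3 were called higher and 1 lower at LC, and Sec24d, Erlin1 and Sec23a were not called (0.0586 to 0.584). Without AL replicate 2 the calls at LC were 3 higher and 6 lower, and without LC replicate 4, RF replicate 2 or RF replicate 3 those at RF against LC numbered 3, 2 and 2. Sec23a at LC against AL was not called on leaving out any 1 of AL replicates 3 and 4, LC replicates 1, 2 and 4 (adjusted p = 0.0535 to 0.180) or with library totals alone or FPKM (0.553 to 0.584). Sec23a at RF against LC was not called on leaving out any 1 of RF replicates 2 and 3 (adjusted p = 0.0610 to 0.0666) or with library totals alone or FPKM (0.110 to 0.112). Sec24d at LC against AL was not called with library totals alone or FPKM (adjusted p = 0.0586 to 0.0724). Sec24d at RF against LC was not called on leaving out RF replicate 3 (adjusted p = 0.0567) or with FPKM (0.0603 to 0.0604). Erlin1 at LC against AL was not called with library totals alone or FPKM (adjusted p = 0.150 to 0.192). Erlin1 at RF against LC was not called on leaving out any 1 of AL replicates 3 and 4, LC replicates 1, 2 and 4, RF replicates 1, 2 and 3 (adjusted p = 0.0505 to 0.176) or with the compared groups alone, length and GC trends removed, library totals alone or FPKM (0.0552 to 0.263). Fbxw7 at RF against LC was not called on leaving out any 1 of LC replicate 4, RF replicates 1 and 2 (adjusted p = 0.0535 to 0.0916). At LC against AL Fbxw7 was not called (0.37, edgeR adjusted p = 0.0752). It was called higher there with library totals alone, FPKM or voom and without AL replicate 2 (adjusted p = 0.00605 to 0.0291).

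Partner transcription factors and coactivators had calls in the direction of Mlxipl and Usf1, higher at LC. Of 18, 5 rose and none fell at LC against AL (27.8% called, against 31.5% of all genes called and 16% called higher), with a median of 0.30. At RF against LC 4 fell and none rose (22.2% called, against 22.1% of all genes called and 10.7% called lower), with a median of −0.16. With the length trend removed the medians were 0.16 and −0.11, with 5 higher and 1 lower at LC against AL. With length and GC trends removed they were 0.15 and −0.08, with 3 higher and 1 lower at LC against AL and 2 lower at RF against LC. With library totals alone they were 0.61 and −0.37. Mlxip, the gene of the ChREBP relative MondoA, was at 13.98 ± 1.45 CPM at AL and 24.6 ± 2.81 at LC (0.82, edgeR adjusted p = 0.00205) and fell at RF against LC (−0.50, adjusted p = 0.0314). Med15, a Mediator subunit known to bind SREBPs, rose (0.52, adjusted p = 0.00808) and fell again at RF (−0.51, adjusted p = 0.0120). The chromatin genes Ep300 (0.53, adjusted p = 0.0134) and Smarcd3 (0.77, adjusted p = 0.0345) and the LXRβ gene Nr1h2 (0.34, adjusted p = 0.0449) also rose. Nr1h2 (−0.60, adjusted p = 0.00507) and Smarcd3 (−0.75, adjusted p = 0.0482) fell at RF against LC. The level of Smarcd3 was low, at 1.87 ± 0.436 CPM at AL and 3.21 ± 0.577 at LC. The count at LC against AL was 2 without AL replicate 3, 3 without LC replicate 1 or RF replicate 3, 3 with no filter on low counts or the compared groups alone, 12 with library totals alone and 10 in FPKM. At RF against LC it was 8 with library totals alone, 7 in FPKM, 1 without RF replicate 1, and 2 without RF replicate 2 or LC replicate 4. Ep300 at LC against AL was not called on leaving out AL replicate 3 (adjusted p = 0.0778) or with length and GC trends removed or length trend removed (0.136 to 0.177). Smarcd3 at LC against AL was not called on leaving out any 1 of AL replicates 2 and 3, LC replicates 1 and 4, RF replicate 3 (adjusted p = 0.0511 to 0.112) or with the compared groups alone, length and GC trends removed or no filter on low counts (0.0503 to 0.0607). Nr1h2 at LC against AL was not called on leaving out any 1 of AL replicates 3 and 4, LC replicates 1 and 2, RF replicates 1, 2 and 3 (adjusted p = 0.0619 to 0.164) or with DESeq2, the compared groups alone, length and GC trends removed, no filter on low counts or relative log expression size factors (0.0592 to 0.358). Mlxip at RF against LC was not called on leaving out any 1 of LC replicates 3 and 4, RF replicates 1 and 2 (adjusted p = 0.0620 to 0.125) or with length and GC trends removed or length trend removed (0.0614 to 0.0664). Med15 at RF against LC was not called on leaving out RF replicate 1 (adjusted p = 0.0603). Smarcd3 at RF against LC was not called on leaving out any 1 of AL replicate 3, LC replicates 1, 2 and 4, RF replicates 1, 2 and 3 (adjusted p = 0.0618 to 0.151) or with DESeq2, length and GC trends removed or no filter on low counts (0.0502 to 0.0790).

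Known targets of SREBP-1c in fatty acid synthesis were lower at LC and higher at RF in every call. Of 20, 10 fell and none rose at LC against AL (50.0% called, against 31.5% of all genes called and 15.6% called lower, median −1.04). At RF against LC 16 rose and none fell (80.0% called, against 22.1% of all genes called and 11.4% called higher, median 1.76). None was called at RF against AL (median 0.57). This list, like the others, was chosen with earlier results of these data known, so its shares are descriptive only. In FPKM with a pseudocount of 1 the first median was −0.59. It was −0.72 with library totals alone, −0.72 without AL replicate 4, where 8 were called lower, and −1.35 without AL replicate 2. At RF against LC the median was 1.29 without RF replicate 2, where 13 were called higher, and 2.00 without RF replicate 3, where 17 were. At RF against AL the median was 0.31 without RF replicate 2, and DESeq2 and the fit without RF replicate 3 each called 1 gene higher. The 4 with the smallest p in both comparisons were the desaturase genes Fads1, Fads2 and Scd1 and the acyltransferase gene Agpat2. Scd1 rose by 5.22 on the log2 scale from LC to RF (SE 0.46, edgeR adjusted p = 0.000317), where its level was 238 ± 109 CPM (n = 4) and 8862 ± 3369 CPM (n = 3). On the same log2 scale Fads2 rose by 2.44, Fads1 by 2.05 and Agpat2 by 1.33 (101 ± 18.1 to 254 ± 26.5 CPM, SE 0.17, adjusted p = 0.000510).

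Known targets of SREBP-2 in cholesterol synthesis and uptake had 3 of 24 lower and none higher at LC against AL (12.5% called, against 31.5% of all genes called and 15.6% called lower). The median there was −0.32, and it was −0.09 without LC replicate 3, −0.10 without AL replicate 4, −0.19 without AL replicate 3, −0.65 without AL replicate 2 and −0.72 without LC replicate 2. Library totals alone gave −0.01, FPKM −0.05 and voom −0.76. The genes that fell were Ebp (−1.24, edgeR adjusted p = 0.000159), Sc5d (−1.005, adjusted p = 0.00490) and Tm7sf2 (−1.56, adjusted p = 0.0127), enzymes of the last steps of sterol synthesis. At RF against LC 6 of 24 rose and none fell (25% called, against 22.1% of all genes called and 11.4% called higher), with a median of 1.07. Among the 6 were the same 3 (1.13, 1.31 and 1.74) and Stard4, a sterol carrier gene (0.65, adjusted p = 0.0117). DESeq2 called 1 higher and 5 lower at LC against AL and 12 higher at RF against LC, the count at LC was 5 without AL replicate 2, and that at RF against LC was 3 without RF replicate 2. Tm7sf2 at LC against AL was not called on leaving out any 1 of AL replicates 3 and 4 (adjusted p = 0.0529 to 0.0542). Stard4 at RF against LC was not called on leaving out RF replicate 2 (adjusted p = 0.0752).

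Of 12 known targets of ChREBP in sugar metabolism, 1 rose and 2 fell at LC against AL (25%, against 31.5% of all genes, median −0.11), and 2 rose and 1 fell at RF against LC (25%, against 22.1% of all genes, median 0.04). Without LC replicate 1 none rose and 4 fell at LC against AL, and 4 rose and none fell at RF against LC. The first median was 0.06 with the length trend removed and 0.03 without AL replicate 4, and in FPKM the medians were 0.21 and −0.11 with 3 calls higher and then 2 lower. Gpd1, a glycerol phosphate dehydrogenase gene, fell (−0.58, edgeR adjusted p = 0.0208) with a later difference of 0.49 that did not pass (adjusted p = 0.0549). Klf10, a transcription factor gene, went the other way, on the log2 scale rising by 0.70 (adjusted p = 0.0291) and falling by 0.75 (adjusted p = 0.0304). Tkfc, a triokinase gene of fructose use, rose at RF against LC (0.58, adjusted p = 0.0458). With library totals alone the medians turned to 0.21 and −0.17, with 2 calls higher and none lower at LC against AL and none higher and 1 lower at RF against LC, while DESeq2 called 4 higher and 1 lower there. The counts moved with single libraries: 1 call was left at LC against AL on leaving out any 1 of AL replicates 3 and 4 and LC replicate 3, and at RF against LC 1 without LC replicate 3 and none without RF replicate 2 or 3. Gpd1 at LC against AL was not called on leaving out any 1 of AL replicate 3, LC replicate 3 (adjusted p = 0.0548 to 0.119) or with library totals alone or FPKM (0.182 to 0.233). At RF against LC Gpd1 was called higher without LC replicate 1 or 4 (adjusted p = 0.0399 to 0.0456). It was also called there with DESeq2, voom, no filter on low counts, length trend removed or length and GC trends removed (0.0143 to 0.0484). Klf10 at LC against AL was not called on leaving out any 1 of AL replicates 3 and 4, LC replicates 1 and 3 (adjusted p = 0.0543 to 0.121). Klf10 at RF against LC was not called on leaving out any 1 of LC replicates 1 and 3, RF replicates 1, 2 and 3 (adjusted p = 0.0553 to 0.120). Tkfc at RF against LC was not called on leaving out any 1 of AL replicate 3, LC replicates 2, 3 and 4, RF replicates 2 and 3 (adjusted p = 0.0607 to 0.189) or with library totals alone or FPKM (0.194 to 0.196). At LC against AL the main fit did not call Tkfc. It was called lower there without AL replicate 2 or LC replicate 1, by voom and with length and GC trends removed (adjusted p = 0.0328 to 0.0454).

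**Figure D5:**
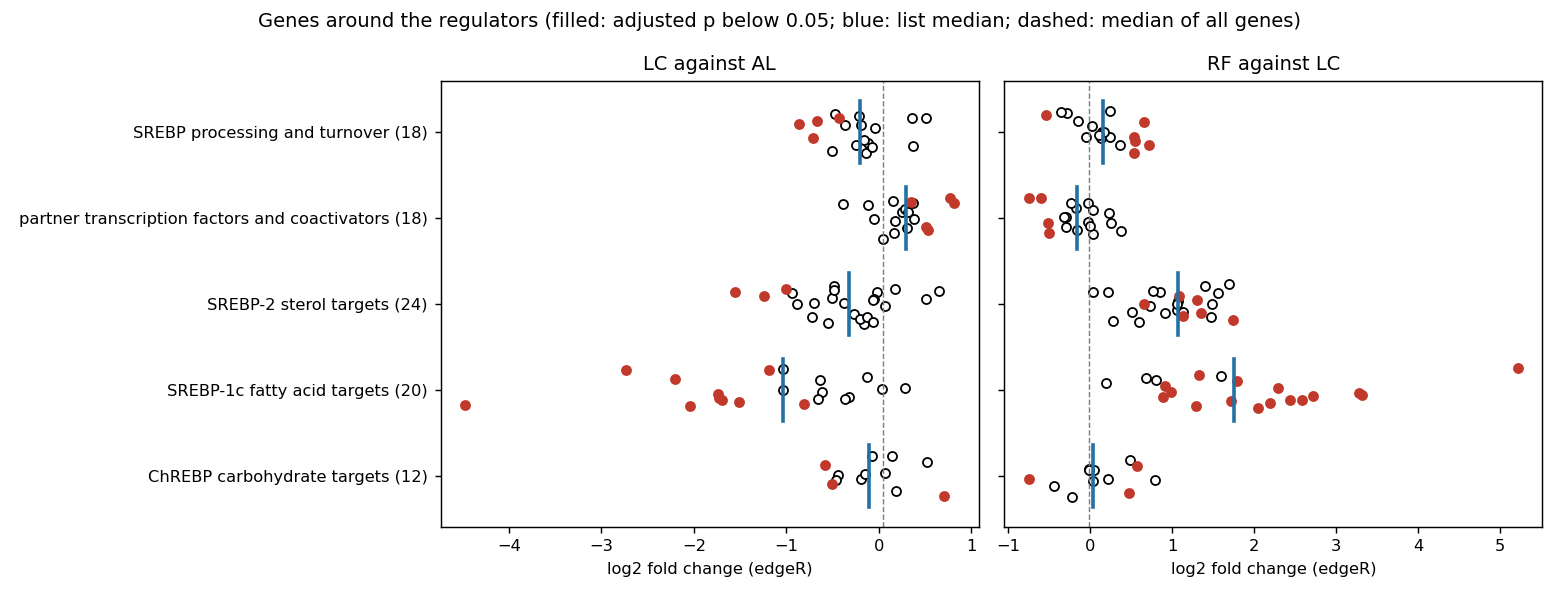
Log2 fold changes by edgeR of the genes of each list (number in brackets), one point per gene, filled where the adjusted p is below 0.05, with the list median in blue and the median of all genes dashed. SREBP-1c targets are farthest from 0, with medians of −1.04 at LC against AL and 1.76 at RF against LC.

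The genes whose profiles over the 10 libraries were nearest to those of Insig1, Mlx and Insig2 were found by the root mean square difference of centred log2 CPM among 9293 genes. For Insig1 they were Slc25a15 (0.157), Exph5 (0.169) and Dhx58 (0.171), where the median gene was at 0.509. For Mlx they were Hs3st3b1 (0.0749), Rpl7l1 (0.0876) and Mkks (0.0902), where the median was 0.363. For Insig2 they were Manf (0.348), Hectd2 (0.407) and Insc (0.411), where the median was 0.982. Hectd2 was at 112 ± 30.1 CPM at AL, 39.1 ± 9.92 at LC and 70.3 ± 8.50 at RF, and Manf at 85.3 ± 35.8, 31.5 ± 2.69 and 86.2 ± 33.9 CPM.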

How the data were processed

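Liver RNA of 10 samples was sequenced. Per the labels' protocols, libraries were enriched for poly(A) tails without keeping strand. The authors deposited estimated counts, called expected counts here, and FPKM per gene. Per the submitters' processing notes, HISAT and Bowtie2 were used with GRCm39, with no version or role stated. The read counter and its gene models were not given in the sources used here. Of the deposited expected counts 10.9% were not whole, and all were rounded for the count tests.

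Genes were filtered with filterByExpr and scaled by TMM, and edgeR 4.0.16 (R 4.3.3) fitted 1 mean per group over the 10 libraries. P-values were adjusted over the 12789 genes tested, and standard errors were the absolute log2 fold change divided by the root of F. Ratios were tested by exact permutation. Genes of 5 lists were named by the smallest p, 4 per list at LC against AL and 4 at RF against LC, and the 3 nearest profiles were named for the 3 members with the smallest p. Some genes that this rule names are not reported here. The members and lists were chosen with earlier results of these data known. The steps were tested on simulated counts. No pair of libraries of a group agreed within sampling noise. Alternatives were DESeq2 1.42.0, limma 3.58.1 on FPKM with pseudocounts of 1 and 0.1 or with voom, 2 other scalings, 2 other filters, the compared groups alone, the replicate number as a block, trends on gene length removed, and each library left out in turn. Removing trends on length and GC content together was added after the data were seen. Antisense or overlapping genes cannot be told apart without strand.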

Additional observations from a re-analysis of the deposited data

Results flagged for a closer look

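Mlx in LC replicate 2 was at 23.1 CPM, apart from the other 3 LC libraries at 27.1 to 27.5 CPM. The gap to the nearest library was 0.909 of the group's range, above Dixon's 95% critical value for 4 samples. Of 36 sets of LC values looked at (members, listed genes and ratios) this was the only one past it, and chance alone gives about 1 in 20.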

How the results depend on the processing

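No call of the 10 regulators in the 3 comparisons, or of the 23 listed genes chosen by the naming rule at LC against AL and RF against LC, turned to the opposite direction under the 22 alternatives. Over 660 fold changes of the 10 regulators 39 calls were lost and 14 gained, and 54 values that were never called changed sign, mostly those of Scap and Srebf2. The number of regulators called at LC against AL was 3 with the length trend removed, 4 with length and GC trends removed, and 1 to 5 with a library left out. At RF against LC it was 2 to 7 with a library left out, and at RF against AL it was 0 throughout. DESeq2 called 5, 0 and 7 in the same order as LC against AL, RF against AL and RF against LC. Library totals alone moved the median of all genes at LC against AL from 0.05 to 0.36 and the share of calls that were higher from 50.7% to 86.5%, and at RF against LC from 51.5% to 19.8%. Log ratios within libraries stayed within their spread under FPKM and with libraries left out. They were not taken with length or GC trends removed. With both trends removed, the LC against AL fold change was 0.23 for Mlxipl and −0.25 for Mlx, where the main fit gave 0.54 and −0.38. The steadiness of the Mlxipl to Mlx ratio under that setting was therefore not tested. Whether the replicate numbers pair the samples was not settled. Deviations of same-numbered LC and RF libraries correlated at 0.252, 0.185 and 0.0487 across genes. The values for replicates 1 and 2 were the highest among LC and RF pairs. RF replicate 3, however, correlated best with LC replicate 4 (0.117). Same-numbered LC and AL libraries correlated at −0.0462 to 0.0654. Blocking on the number called 25.3% of all genes at RF against LC, where the main fit called 22.1%. At LC against AL it called 30.2%, where the main fit called 31.5%. With the replicate number as a block, 4, 0 and 7 regulators were called, Mlxipl was not called at LC against AL (0.0570) and Ppargc1b was called at RF against LC (0.00836). Under the block Klf10, Nr1h2, Smarcd3 and Tm7sf2 were not called at LC against AL (0.0517 to 0.0686), nor Smarcd3 and Tkfc at RF against LC (0.0795 and 0.0752).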

Other observations

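Among the 3 RF libraries, RF replicate 2 was the highest for Srebf1 (815 CPM), Srebf2 (46.5), Scap (110), Insig1 (705), Mlx (40.9) and Ppargc1b (18.3). It was the lowest for Mlxipl (712), Mbtps1 (40.4) and Usf1 (16.6). Among the 3 AL libraries, AL replicate 2 was the highest for Srebf1 (580 CPM), Mlxipl (956), Mbtps1 (48.3), Usf1 (24.2) and Ppargc1b (25.3). It was the lowest for Srebf2 (31.4), Scap (88.1) and Mlx (32.3). Insig2 spanned 101 to 256 CPM within AL, a wider range than in either other group.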
